A study of Sus scrofa with 24 samples.

Results

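The circular RNAs (circRNAs) that the spleen of Meishan pigs makes from the host genes CD96, ARHGAP15 and DOCK2 were followed from 1 to 180 days after birth. A circRNA forms when the end of an exon is spliced back to the start of the same exon or of one upstream, and it is counted by the reads that cross this back-splice junction. The members were all rows of the count table whose ends match exon ends of 1 of these genes within 1 base. This gave 1 circRNA for each gene, 3 of the 3000 circRNAs in the table, of which 2848 could be assigned to 1675 host genes. The 24 spleens came from 24 pigs of 1 breed, with 3 pigs at each of 8 stages (1d, 7d, 14d and 21d, then 28d, 35d, 120d and 180d), and with 1d as the control. No treatment or genetic change is named for any of them, each pig gave 1 library, and stages were therefore compared between different animals.

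CD96 is a surface receptor of T and NK cells that binds CD155 on other cells and shares this ligand with the activating receptor CD226 and the inhibitory receptor TIGIT. DOCK2 and ARHGAP15 act on the small GTPase Rac, which drives actin remodelling when lymphocytes migrate or meet a target cell. DOCK2 is a guanine nucleotide exchange factor of blood cells that loads Rac with GTP, and ARHGAP15 is a GTPase-activating protein that returns Rac to its inactive state. The spleen gains T and B lymphocytes after birth, while blood cell formation in the organ declines. A circRNA count is a measure of back-spliced RNA and not of the messenger RNA or protein of the host gene.

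The 3 circRNAs are circRNA_11685 of CD96 (gene ID 100627543), circRNA_15159 of ARHGAP15 (gene ID 100520808) and circRNA_18062 of DOCK2 (gene ID 100512021), all on the minus strand of Sscrofa11.1. CircRNA_11685 spans chr13:148164225-148168420 and holds exons 4 and 5 of 14 (208 and 56 nt). CircRNA_15159 spans chr15:8691656-8737262 and holds exons 2 to 5 of 13 (69, 62, 88 and 90 nt). CircRNA_18062 spans chr16:54199616-54206085 and holds exons 7 to 9 of 52 (136, 155 and 82 nt). The junctions below are the sequences that define the counts, read from the RefSeq assembly 5′ to 3′ on the strand of the gene. Lower case marks the last 15 bases of the circle's last exon and capitals mark the first 15 bases of its first exon, to which they are joined.
CD96 circRNA_11685 junction: gatgtccttggaaagGAGGGTAATGGAACG
ARHGAP15 circRNA_15159 junction: aagaatgtctttcagATATCCAGGCACAGA
DOCK2 circRNA_18062 junction: aaggtggtcttcacgAATCCTTGAGCTTGA

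In the genome, each circle is bounded by the splice signals that the circRNA caller required, AG before the first exon and GT after the last. They are shown in capitals in the bases that surround the start and the end of each circle.
CD96 start: gtctcatcAGgagggtaatg
CD96 end: ccttggaaagGTgagtcact
ARHGAP15 start: atttttccAGatatccaggc
ARHGAP15 end: tgtctttcagGTaagaatgt
DOCK2 start: tgctctttAGaatccttgag
DOCK2 end: ggtcttcacgGTacgtgtgc

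**Figure D1:**
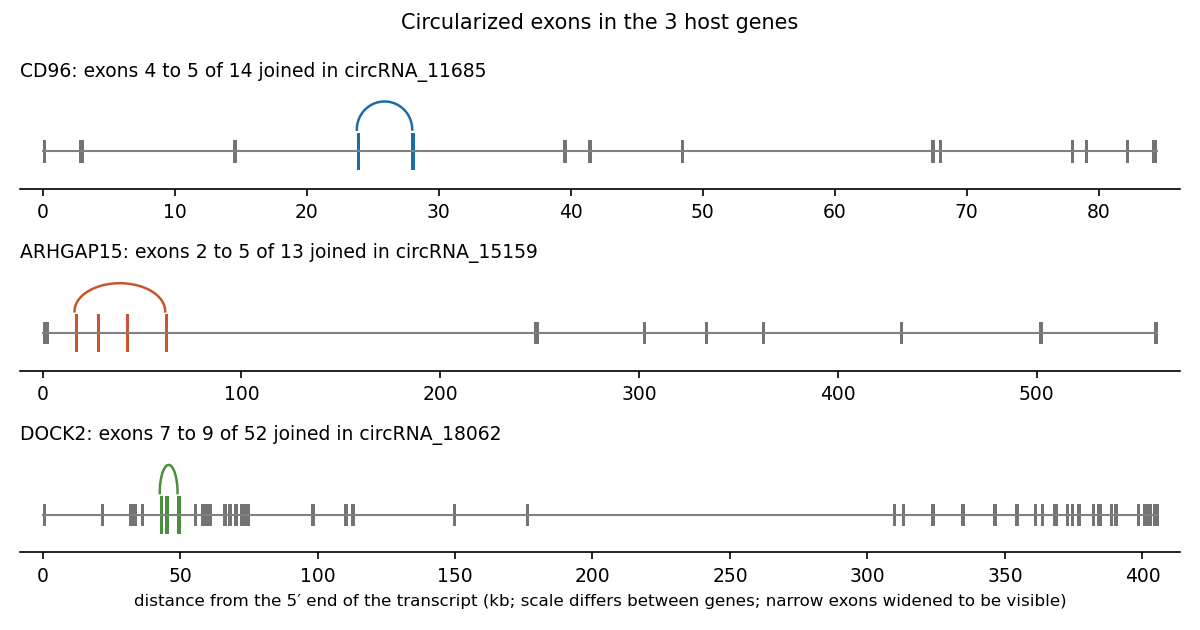
Exons (vertical bars) of CD96, ARHGAP15 and DOCK2 along the distance from the 5′ end of the transcript in kb, with a separate scale for each gene and narrow exons widened to be visible. Coloured bars are the circularized exons (4 to 5 of 14, 2 to 5 of 13 and 7 to 9 of 52), which the arc joins, and all 3 circles lie in the 5′ part of their gene.

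All the exons in the 3 circles were coding, and none held the start codon. They encode residues 182 to 269 of 571 of CD96, 50 to 152 of 469 of ARHGAP15 and 157 to 281 of 1827 of DOCK2. The exon lengths add up to 264 nt for CD96, 309 nt for ARHGAP15 and 373 nt for DOCK2, against a median of 432 nt over 2844 circRNAs with known exons. All 3 are therefore shorter than the median. GC content was 46.97% for the CD96 circle and 46.11% for the DOCK2 circle, close together above the median of 43.32%. The ARHGAP15 circle had 36.57%, a value that only 6.58% of these circRNAs fell below. The intron downstream of the ARHGAP15 circle is 185252 nt long, against a median of 6738 nt, and 99.8% of circRNAs had a shorter one. The introns flanking the other two circles were of ordinary length, at 9226 and 11444 nt for CD96 and 6656 and 6020 nt for DOCK2. No other circRNA of the table overlapped any of the 3 genes, so the counts are not split between isoforms in this table, and no comparison of isoforms within a gene could be made.

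The label of these genes as T and NK cell genes could not be checked, since none of 17 defining T and NK cell markers (among them CD3E, CD4, CD8A and KLRK1) hosted a circRNA in the table. The same was true of 6 B cell, 4 erythroid and 4 macrophage markers. The genes are therefore named here by symbol only, and no level of the lymphocytes themselves was at hand. Library totals ran from 16273 to 87867 back-splice reads (median 37510) and were lowest on days 1 and 7. No value of 1 occurs in the table, so a circRNA listed at 0 may have had 1 read. Levels below are normalized reads, that is, counts scaled by TMM to a library of average size. Since each circRNA is counted at 1 junction, levels do not grow with the length of the circle.

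CD96 circRNA_11685 was the most abundant of the 3, with a mean of 22.0 normalized reads over the 24 libraries (rank 340 of 3000) and reads in 22 libraries. ARHGAP15 circRNA_15159 had a mean of 8.41 (rank 1233, reads in 20 libraries). DOCK2 circRNA_18062 had 2.91 (rank 2941, reads in 19 libraries), among the least abundant of the table. The CD96 circRNA had the highest count of the 3 in 21 of the 24 libraries. Of the 72 counts 11 were 0, of which 8 were on days 1 and 7 and none was on day 35 or later.

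The level of CD96 circRNA_11685 rose with age. On day 1 the 3 pigs had 0, 2 and 3 reads, and on day 7 they had 8, 4 and 0. On day 14 the counts were 22, 6 and 7, followed by 15, 26 and 28 at 21d and by 20, 19 and 22 at 28d. From 21d onward every library was above all libraries of 1d and 7d on the normalized scale. How many of all circRNAs separated in this way was not counted. The pigs of 35d had 16, 55 and 24 reads, those of 120d had 102, 76 and 87, and those of 180d had 32, 67 and 61. The normalized level was 2.60 ± 2.34 (SD, n = 3, as for all stages) on day 1, 6.34 ± 5.92 on day 7, 13.7 ± 10.8 on day 14, 19.6 ± 3.57 on day 21 and 21.3 ± 5.90 on day 28. It was 24.7 ± 12.4 on day 35, 44.7 ± 2.999 on day 120 and 42.7 ± 7.48 on day 180. The order of the stages by level was thus the order of age up to 120d, with 180d next to 120d. In whole spleen, fewer cells of a type and less RNA per cell cannot be told apart.

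**Figure D2:**
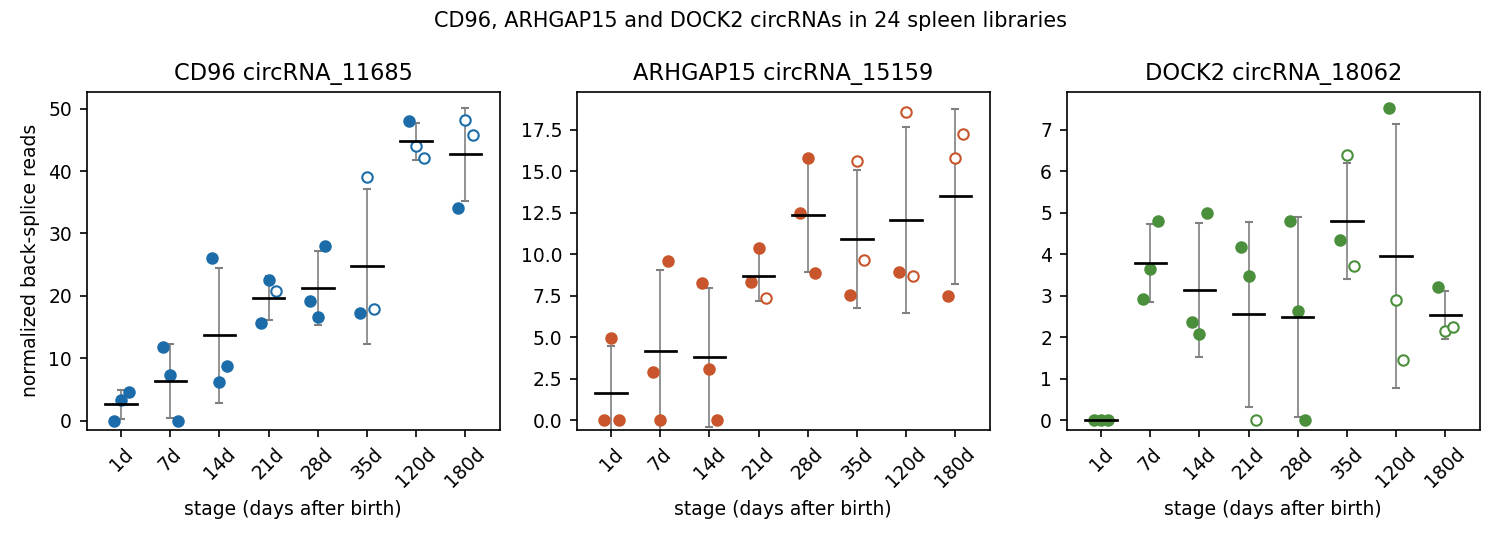
Normalized back-splice reads (y axis) of the CD96, ARHGAP15 and DOCK2 circRNAs in each of the 24 libraries by stage (x axis, days after birth). Points are pigs, black lines stage means and grey bars SD, with n = 3, and open points are the 7 libraries with a valid-base share under 0.96. The CD96 circRNA climbs from a mean of 2.60 on day 1 to 44.7 on day 120, the ARHGAP15 circRNA from 1.65 on day 1 to 13.5 on day 180, and the DOCK2 circRNA is at 0 in all 3 libraries of 1d and between 2.48 and 4.81 at later stages.

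Against 1d, the CD96 circRNA was higher on days 21, 28, 35, 120 and 180 (edgeR quasi-likelihood test, Benjamini-Hochberg adjusted p under 0.05 and at least a 2-fold change). The log2 fold change was 2.77 ± 0.65 (SE) on day 21 with an adjusted p of 0.0239, where 0.9% of all circRNAs were called higher. It was 2.85 ± 0.66 on day 28 (adjusted p = 0.00953 by edgeR, 1.27% of all called higher) and 3.11 ± 0.63 on day 35 (adjusted p = 0.00406 by edgeR, 1.9% of all). On day 120 it was 3.94 ± 0.59 with an adjusted p of 1.70e-05 by edgeR, where 4.63% of all circRNAs were called higher. On day 180 it was 3.88 ± 0.60 with an adjusted p of 1.49e-05 by edgeR, where 5.9% were. The difference of 1.17 ± 0.84 on day 7 (adjusted p = 0.731 by edgeR; 0% of all circRNAs called higher) and that of 2.22 ± 0.70 on day 14 (adjusted p = 0.183 by edgeR; 0.0667% of all) did not pass. The 5 reads on day 1 make these folds imprecise: the ratio of summed normalized reads was 15.9 (exact 95% interval 6.73 to 49.4, counting error only) on day 120 and 15.5 (6.50 to 48.4) on day 180.

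The calls on days 120 and 180 did not rest on 1 pig. Without any 1 library of 1d, 120d or 180d the adjusted p by edgeR stayed at or below 0.000831 on day 120 and at or below 0.000492 on day 180. The call on day 28 was lost without 1d replicate 1 (adjusted p = 0.0778 by edgeR) or without 1d replicate 2 (0.0525). The call on day 21 was lost in 9 of 16 alternatives, among them the fits without 1d replicate 1 (0.144), 1d replicate 2 (0.0898), 1d replicate 3 (0.0581), 21d replicate 2 (0.0994) or 21d replicate 3 (0.0817). The call on day 35 was lost in the 17 libraries with a valid-base share of 0.96 or more (log2 fold change 2.58, adjusted p = 0.298 by edgeR, 1 library left on day 35) and with the GC content of the reads as a covariate (3.02, adjusted p = 0.0579 by edgeR).

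The rise of the CD96 circRNA went on after the first week. It was higher on days 35, 120 and 180 than on day 7, with log2 fold changes of 1.95, 2.78 and 2.72 (adjusted p = 0.0229, 0.000142 and 0.00013 by edgeR, with 2.6%, 6.37% and 7.13% of all circRNAs called higher). It was also higher on days 120 and 180 than on day 14, by 1.72 and 1.66 (adjusted p = 0.0221 and 0.0143 by edgeR), where 0.4% and 1.17% of all circRNAs were called higher. In all, 10 of the 28 pairs of stages differed for this circRNA, each time with the older stage higher, and no pair of neighbours in the order of its levels did. Over the 7 stage coefficients together its adjusted p by edgeR was 2.88e-06, where 8.97% of all circRNAs passed.

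With age as a continuous variable, the CD96 circRNA gained 0.52 ± 0.059 (log2, SE) per doubling of age (adjusted p = 1.96e-09 by edgeR). Its p-value was the second smallest of the 3000 circRNAs, of which 10.7% were called higher and 5.77% lower with age. The slope was 0.50 without the 3 libraries of 1d (adjusted p = 1.29e-06 by edgeR).

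ARHGAP15 circRNA_15159 also rose with age, at a lower level. The pigs of 1d had 0, 3 and 0 reads, those of 7d had 2, 0 and 6, and those of 14d had 7, 3 and 0. All pigs had reads from 21d on, with 8, 12 and 10 at that stage, followed by 13, 18 and 7 at 28d and by 7, 22 and 13 at 35d. Counts were 19, 32 and 18 on day 120 and 7, 22 and 23 on day 180. Every library from 21d onward was above every library of 1d, while 7d and 14d overlapped with 1d. As for CD96, the share of all circRNAs with such a separation was not counted. The normalized level was 1.65 ± 2.85 on day 1, 4.17 ± 4.91 on day 7, 3.79 ± 4.18 on day 14, 8.72 ± 1.54 on day 21 and 12.4 ± 3.46 on day 28. It was 10.9 ± 4.17 on day 35, 12.1 ± 5.62 on day 120 and 13.5 ± 5.28 on day 180, so the means from 28d to 180d lay within 1 SD of each other. No pair of neighbours in the order of its levels differed (adjusted p by edgeR from 0.664 to 1.00).

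Against 1d, the ARHGAP15 circRNA was higher on day 120 (log2 fold change 2.74 ± 0.85, adjusted p = 0.0366 by edgeR) and on day 180 (2.95 ± 0.85, adjusted p = 0.0171 by edgeR). As a ratio of normalized reads this was 6.90 (exact 95% interval 2.26 to 34.3) and 8.39 (2.72 to 42.0), with only 3 reads on day 1. The changes of 2.29 on day 21 (adjusted p = 0.273 by edgeR), 2.81 on day 28 (0.0786) and 2.64 on day 35 (0.09) did not pass. Both calls rested on few libraries. That on day 120 was lost without 1d replicate 1 (adjusted p = 0.161 by edgeR), 1d replicate 3 (0.160) or 120d replicate 2 (0.144), and in 8 of 16 alternatives in all. That on day 180 was lost without 1d replicate 1 (0.0900), 1d replicate 3 (0.0891), 180d replicate 2 (0.0550) or 180d replicate 3 (0.0574), and in 7 of 16 alternatives.

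**Figure D3:**
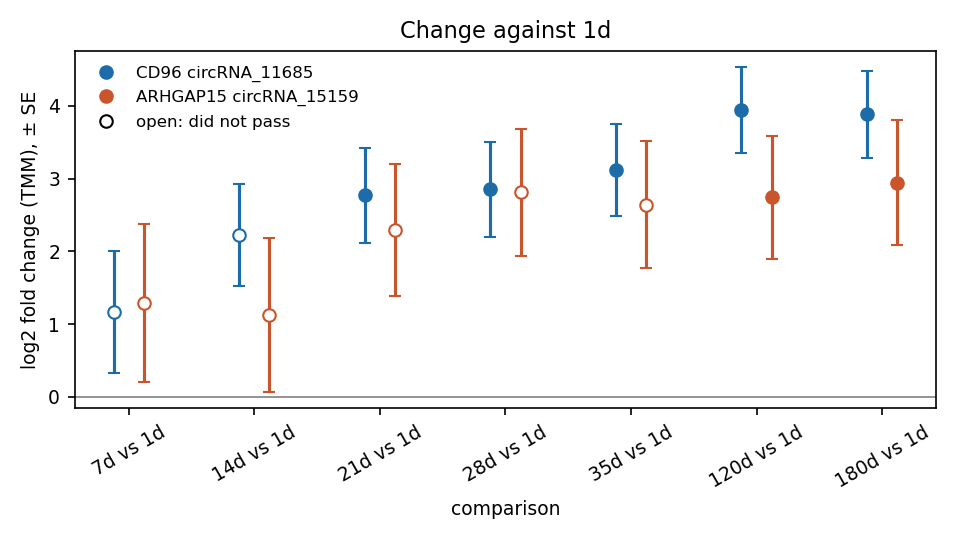
Log2 fold change with SE (y axis) of the CD96 and ARHGAP15 circRNAs at each later stage against 1d (x axis). Filled points passed the threshold, which CD96 did in 5 comparisons and ARHGAP15 in 2 (2.74 on day 120 and 2.95 on day 180), and open points did not. DOCK2 is not drawn, since its 3 libraries of 1d had no reads.

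Over age as a continuous variable, the ARHGAP15 circRNA gained 0.35 ± 0.085 per doubling of age (adjusted p = 0.00259 by edgeR, rank 150 of 3000). The slope kept its call without any 1 library (adjusted p from 0.00143 to 0.00923 by edgeR) and without the 3 libraries of 1d (slope 0.30, adjusted p = 0.0400 by edgeR). It was 0.34 in the 17 libraries with a valid-base share of 0.96 or more, where it did not pass (adjusted p = 0.156 by edgeR). Over all stages together its adjusted p was 0.0518 by edgeR, which fell below 0.05 when 1d replicate 2, 7d replicate 3, 14d replicate 1, 28d replicate 3, 120d replicate 3 or 180d replicate 1 was left out (0.0190 to 0.0497).

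DOCK2 circRNA_18062 was at 0 in all 3 pigs of 1d and had few reads at every later stage. The pigs of 7d had 2, 2 and 3 reads, those of 14d had 2, 2 and 4, those of 21d had 4, 4 and 0 and those of 28d had 5, 3 and 0. Later, the pigs of 35d had 4, 9 and 5 reads, those of 120d had 16, 5 and 3, and those of 180d had 3 each. The highest count came from 1 pig of 120d, and all 3 pigs of 180d had the same low count. The normalized level was 3.79 ± 0.937 on day 7, 3.14 ± 1.61 on day 14, 2.55 ± 2.24 on day 21, 2.48 ± 2.41 on day 28, 4.81 ± 1.40 on day 35, 3.96 ± 3.18 on day 120 and 2.54 ± 0.579 on day 180. After 1d these levels showed no order by age, and none of the 28 pairs of stages passed the test. An unadjusted p under 0.05 by edgeR occurred in 7 pairs, which were the 7 comparisons with 1d (0.00806 on day 35 to 0.0461 on day 21).

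Whether the DOCK2 circRNA was lower at birth than at later stages could not be settled at this depth. The limit used for 1d was an expected total of 7 reads over its 3 libraries, or 3.95 normalized reads. Above an expected total of 6.43 reads, the Poisson probability that all 3 libraries hold only 0 or 1 read is under 0.05. Only the means on days 35 and 120 reached that limit, at 1.22 and 1.00 times its value. There were 68 circRNAs (2.27%) listed at 0 in all 3 libraries of 1d. The adjusted p by edgeR against 1d ran from 0.107 on day 120 to 0.484 on day 14, and it was 0.194 on day 180. The slope with age was 0.18 ± 0.13 (adjusted p = 0.354 by edgeR) and was -0.00064 without the 3 libraries of 1d (adjusted p = 1.00 by edgeR).

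These levels are relative to the other circRNAs of a library. When the clean reads of each library were taken as the depth instead, the median log2 change over all 3000 circRNAs moved up. It went from 0.19 to 1.29 in 35d vs 1d, from 0.26 to 1.99 in 120d vs 1d and from 0.20 to 1.27 in 180d vs 1d. How many of all circRNAs passed with clean reads as the depth was not counted. On that scale the DOCK2 circRNA passed on days 35, 120 and 180 vs 1d (adjusted p = 0.00677, 0.00114 and 0.0307 by edgeR) and with age (slope 0.43, where the median of all circRNAs was 0.25).

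A comparison among the 3 circRNAs within each library is not moved by the scaling of the library, but a circle with 1 read is listed at 0, so that in small libraries the share of the rarer circle may be too low. Their reads summed to 8 on day 1, 27 on day 7, 53 on day 14, 107 on day 21, 107 on day 28, 155 on day 35, 358 on day 120 and 221 on day 180. CD96 took 62.5% of these reads on day 1, 44.4% on day 7, 66.0% on day 14, 64.5% on day 21, 57.0% on day 28, 61.3% on day 35, 74.0% on day 120 and 72.4% on day 180. ARHGAP15 took between 18.9% (14d) and 37.5% (1d). DOCK2 took 25.9% on day 7 and 4.07% on day 180. The share of CD96 in the reads of CD96 and DOCK2 had no relation with log2 age that passed the test over the 23 libraries with reads of either (Pearson r = 0.211, permutation p = 0.318; Spearman coefficient = 0.239, permutation p = 0.269). Without the libraries of 1d, which held 5 reads of CD96 and none of DOCK2, r was 0.557 over 21 libraries (permutation p = 0.00116, adjusted over 3 pairs 0.00348). Libraries were not weighted by their reads, and the lowest share, 0% in 7d replicate 3, rested on 3 reads. Still without 1d, r was 0.505 within the 14 libraries with a valid-base share of 0.96 or more (permutation p = 0.0832, adjusted 0.25), which did not pass, and 0.326 in the 7 others. The share of CD96 in the reads of CD96 and ARHGAP15 gave r = 0.148 (permutation p = 0.493; Spearman coefficient = 0.0568, permutation p = 0.797), and r = 0.213 without the libraries of 1d. The share of ARHGAP15 in the reads of ARHGAP15 and DOCK2 gave r = 0.223 over 22 libraries (permutation p = 0.316; Spearman coefficient = 0.292, permutation p = 0.187), and r = 0.466 without those of 1d (permutation p = 0.0311, adjusted 0.0466). Shares of 0% in 7d replicate 2 and 14d replicate 3 rested on 2 and 4 reads. Without 1d and within the 14 libraries of higher valid-base share, r was 0.342 (permutation p = 0.231, adjusted 0.347) and did not pass.

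**Figure D4:**
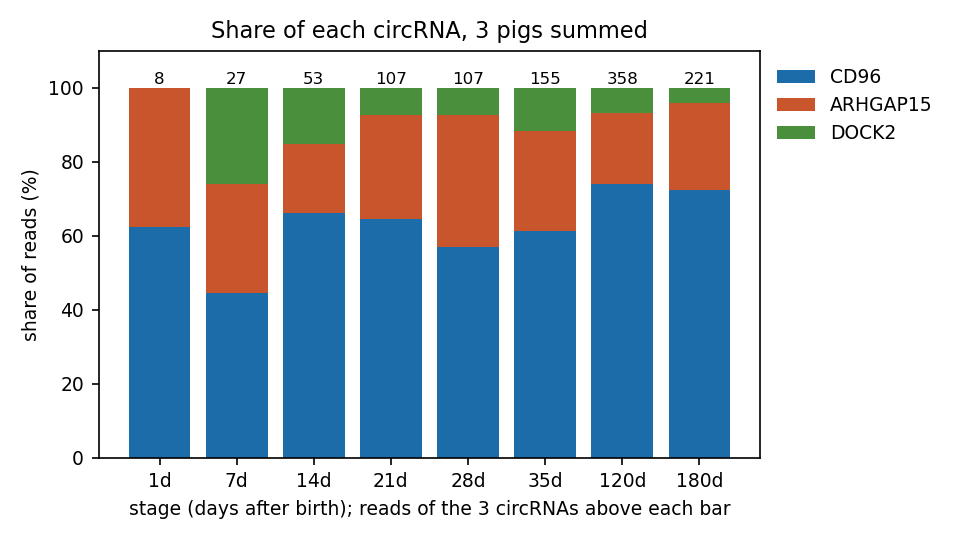
Share of the CD96, ARHGAP15 and DOCK2 circRNAs (y axis, %) in their summed reads at each stage (x axis, 3 pigs summed), with the number of reads above each bar. CD96 takes the largest share at every stage, from 44.4% on day 7 to 74.0% on day 120, and the 1d bar rests on 8 reads.

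Whether pigs of 1 stage with more reads of 1 of the circRNAs had more of another was tested next, and no pair passed. With the stage means removed, Pearson r over 24 libraries was -0.0065 for CD96 and ARHGAP15 (permutation p = 0.987), -0.168 for CD96 and DOCK2 (permutation p = 0.243) and 0.014 for ARHGAP15 and DOCK2 (permutation p = 0.934). The Spearman coefficient was 0.154, -0.141 and 0.010 (permutation p = 0.601, 0.504 and 0.963), and the adjusted p over the 3 pairs was at least 0.730. Without the 2 libraries farthest from the median, r was 0.239, -0.144 and -0.039. With so few reads a weak relation could not have been seen.

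The circRNAs whose levels ran most like each member were sought among 999 with a mean of at least 10 normalized reads, by Pearson r of log2 CPM over the 24 libraries. These values take in shared courses over stage and depth as well as differences among pigs of 1 stage, and they were not tested. For CD96 they were circRNA_21145 of MYO9B, an unconventional myosin (r = 0.918), circRNA_01497 of USP3, a deubiquitinase (r = 0.899), and circRNA_37493, which lies within CR1 without matching its exons (r = 0.888). The median r of all candidates with CD96 was 0.210. For ARHGAP15 they were circRNA_37724 of SNX13, a sorting nexin (r = 0.849), circRNA_06528 of RUBCNL (r = 0.802) and circRNA_27744 of MKL1, an actin-regulated coactivator of transcription (r = 0.778). For DOCK2 the values were lower, with circRNA_04305 of MAPKAP1 (r = 0.720), circRNA_26176 of WWP1 (r = 0.630) and circRNA_32295 of TESK2 (r = 0.604). With the stage means removed, r was 0.791 for CD96 and MYO9B, 0.666 for ARHGAP15 and SNX13 and 0.595 for DOCK2 and MAPKAP1. The remaining pairs had from 0.300 (TESK2) to 0.614 (RUBCNL). All were picked for a high r in the same libraries.

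Around the 3 genes, the table held few other hosts of lymphocyte genes. Counts were summed per host gene, and 4 of 54 T and NK cell genes were measured, namely CD96, IKZF1, LEF1 and SATB1. CD96 was the only one of them that rose in 180d vs 1d, where 8.42% of 1675 host genes were called higher and 5.91% lower (adjusted p under 0.05). IKZF1, a transcription factor of lymphocyte development, went from 33.0 ± 10.2 to 16.4 ± 3.25 normalized reads (log2 fold change -1.003, adjusted p = 0.0612 by edgeR). SATB1, a chromatin organizer of thymocytes, had -0.59 (adjusted p = 0.708 by edgeR) and LEF1, a transcription factor of the Wnt pathway, 0.56 (adjusted p = 0.737 by edgeR). The median of the 4 genes was -0.01, against 0.15 over all host genes. With clean reads as the depth, where the median slope of all host genes was 0.26, all 4 rose with age. The summed level of the 3 genes other than CD96 was 31.7 to 56.0 on day 1 and 23.9 to 32.3 on day 180.

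From a list of 11 genes around the nectin and CD155 receptors and their ligands, 2 besides CD96 were measured. Their place on the list does not make them partners of CD96. AFDN, the adaptor afadin that ties nectins to actin, fell from 56.8 ± 29.3 to 21.3 ± 3.84 normalized reads in 180d vs 1d (log2 fold change -1.45, adjusted p = 0.00129 by edgeR). NECTIN3, an adhesion molecule and member of the nectin family, went from 38.6 ± 15.7 to 24.9 ± 3.74 (-0.66, adjusted p = 0.219 by edgeR). The median of the list was -0.66 with CD96 included. With clean reads as the depth AFDN had -0.32 in 180d vs 1d (adjusted p = 0.529 by edgeR) and did not pass.

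The Rac list was better covered, with 16 of 34 genes, and 5 of them rose with age while none fell, beside 13.8% of all host genes that were called higher and 9.37% that were called lower with age. The 5 were ARHGAP15, the exchange factor VAV3 and the DOCK family exchange factors DOCK8, DOCK10 and DOCK11. The list was drawn broadly and includes the GTPase CDC42, so a place on it does not mean an action on Rac itself. Their slopes per doubling of age were 0.34 for ARHGAP15, 0.42 for VAV3, 0.23 for DOCK8, 0.16 for DOCK10 and 0.19 for DOCK11. The exchange factor VAV1 (0.12, adjusted p = 0.171 by edgeR), the adaptor ELMO1 (-0.02, adjusted p = 0.933 by edgeR) and the kinase PAK2 (0.08, adjusted p = 0.160 by edgeR) did not pass. Slopes were above 0 for 10 of the 16 genes, and the lowest were those of NCKAP1, a subunit of the WAVE complex (-0.16, adjusted p = 0.0661 by edgeR), the GTPase CDC42 (-0.14, adjusted p = 0.376), DOCK1 (-0.12, adjusted p = 0.478) and the exchange factor ARHGEF7 (-0.11, adjusted p = 0.119). In 180d vs 1d 3 genes rose, namely ARHGAP15, VAV3 and DOCK11. VAV3 was at 0 in all libraries of 1d and had 8.14 ± 3.48 normalized reads on day 180 (adjusted p = 0.0116 by edgeR). This was 2.01 times the upper limit for 1d, an expected total of 7 reads. DOCK11 went from 7.96 ± 7.78 to 25.0 ± 4.19 (log2 fold change 1.53, adjusted p = 0.0195 by edgeR). CYFIP2, a subunit of the WAVE complex at 0 in 1d, had 4.80 ± 4.37 on day 180 (adjusted p = 0.0792 by edgeR), and DOCK8 had 1.63 (adjusted p = 0.141 by edgeR). In 120d vs 1d 3 genes rose (ARHGAP15, VAV3 and DOCK8), where 6.69% of all host genes were called higher. The median log2 fold change of the list in 180d vs 1d was 0.60, or 0.28 with the 3 genes at 0 in 1d set to their lower bound, against 0.15 and 0.13 over all host genes. The summed level of the 14 genes other than ARHGAP15 and DOCK2 was 122 to 148 on day 1 and 149 to 207 on day 180.

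**Figure D5:**
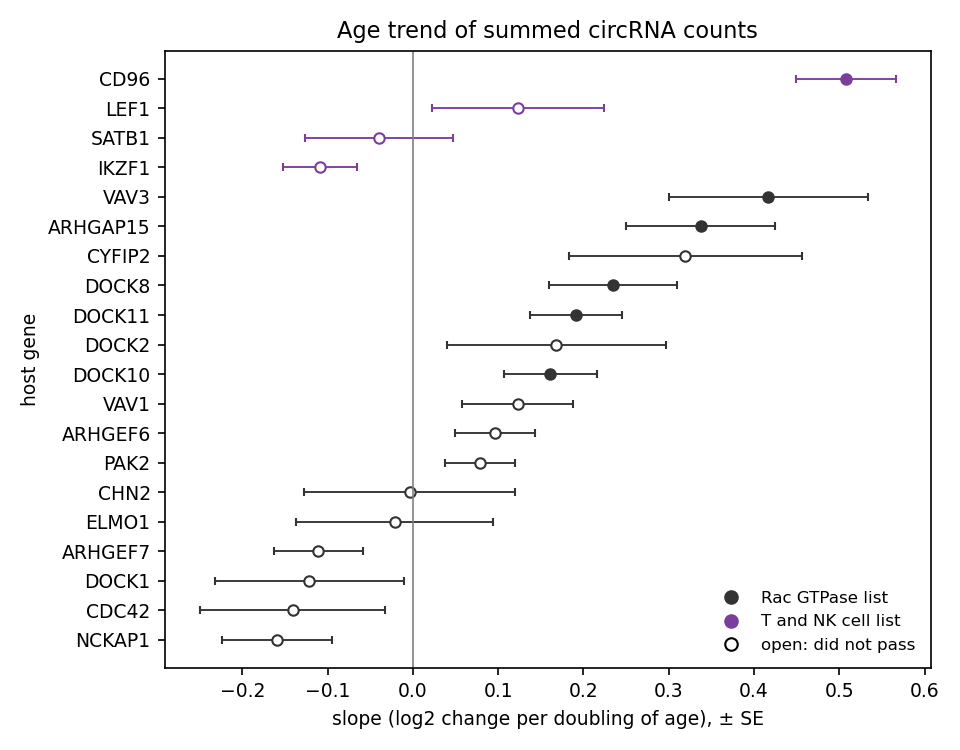
Slope on age with SE (x axis, log2 change of normalized reads per doubling of age) for each measured host gene (y axis) of the Rac list (black) and the T and NK cell list (purple). Filled points passed an adjusted p of 0.05, which CD96 (0.51) and 5 genes of the Rac list did. With clean reads as the depth all 20 slopes were above 0.

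In the 17 libraries with a valid-base share of 0.96 or more none of the 16 genes of the Rac list passed in the trend, while CD96 did (slope 0.53). The slopes there were 0.32 for ARHGAP15, 0.44 for VAV3, 0.30 for DOCK8, 0.10 for DOCK10 and 0.21 for DOCK11, and the median of the list was 0.11, as in all 24 libraries. With table totals as the depth 4 rose and 1 fell with age (NCKAP1), and with clean reads 11 rose, the median slope of all host genes then being 0.26.

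Hosts from lists of other cell types moved over the same stages. Of 25 B and plasma cell genes 4 were measured, and 3 rose in 180d vs 1d: the B cell scaffold BANK1 (log2 fold change 3.81, adjusted p = 0.000758 by edgeR), the B cell receptor inhibitor CD22 (1.34, adjusted p = 0.0222) and RALGPS2 (1.62, adjusted p = 0.0296), while AFF3 had -0.19 (adjusted p = 0.822), beside the 8.42% of all host genes called higher. With table totals as the depth only BANK1 passed (CD22 with an adjusted p of 0.0536 by edgeR and RALGPS2 with 0.0568). Among the libraries with a valid-base share of 0.96 or more, only replicate 1 was left at 180d. The changes there were 3.04 for BANK1, 1.15 for CD22 and 1.65 for RALGPS2. In the trend these 3 rose over all 24 libraries, where 13.8% of all host genes were called higher, and also in the libraries of higher valid-base share. The summed level of all 4 measured B and plasma cell genes, AFF3 included, was 33.3 to 49.7 on day 1 and 88.2 to 127 on day 180. Of 20 macrophage, monocyte and granulocyte genes only CTSS, the protease cathepsin S, was measured, and it rose by 2.27 (adjusted p = 1.55e-05 by edgeR), from 10.001 to 15.5 normalized reads on day 1 to 46.9 to 80.7 on day 180. Of 20 erythroid genes 4 were measured, and TFRC, the transferrin receptor (-3.18, adjusted p = 0.00315 by edgeR), and SOX6, a regulator of erythroid maturation (-4.11, adjusted p = 0.00938), fell, beside 5.91% of all host genes called lower. The membrane skeleton protein EPB41 had -0.66 (adjusted p = 0.0511 by edgeR) and the globin regulator BCL11A -2.34 (adjusted p = 0.0764), and all 4 fell with age in the trend, where 9.37% of all were called lower, whereas 2 fell and 1 rose with clean reads as the depth. None passed in the trend in the libraries with a valid-base share of 0.96 or more, where the slopes were -0.39 for TFRC, -0.40 for SOX6, -0.09 for EPB41 and -0.21 for BCL11A, against -0.49, -0.51, -0.08 and -0.26 in all libraries. Their summed level was 138 to 176 on day 1 and 45.9 to 62.5 on day 180. Of 20 stromal genes FLT1 (-2.60, adjusted p = 0.110 by edgeR) and ZEB2 (0.47, adjusted p = 0.564) were measured, with a summed level of 10.4 to 35.0 on day 1 and 19.6 to 25.6 on day 180, and FLT1 fell in the trend (adjusted p = 0.0460 by edgeR, 0.608 with clean reads as the depth). The part of these other cell types in the rise of the CD96 and ARHGAP15 circRNAs was not tested. The libraries of 1d were also among the smallest, and 4 of the 6 libraries of 120d and 180d had a valid-base share under 0.96. Without the libraries of lower valid-base share, only replicate 1 was left at 120d and only replicate 1 at 180d. The change of CD96 was then 4.04 in 120d vs 1d and 3.51 in 180d vs 1d. With every library thinned to the lowest total it was 3.26 and 3.51, and both values passed. The change of ARHGAP15 was 2.32 and 2.02 without the libraries of lower valid-base share. After thinning it was 1.81 and 2.30, and both calls were lost (adjusted p = 0.516 and 0.25 by edgeR).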

How the data were processed

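Spleen RNA of 24 Meishan pigs was sequenced by the authors, who mapped the reads onto Sscrofa11.1 by BWA and found circRNAs through CIRI2. The deposited table holds counts of back-splice reads, not normalized, for 3000 circRNAs, and the rule that chose them is not given in the sources used here. The sample labels name an RNeasy kit and TruSeq Stranded libraries, the methods of the study TRIZOL, RNase R and a NEBNext kit, and which was used was not settled. With RNase R, linear RNA would have been removed. Nothing says that pigs of a stage came from separate litters.

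Counts were tested with edgeR 4.0.16 (TMM, robust glmQLFit and glmQLFTest) in R 4.3.3 in 1 fit over all 24 libraries and 3000 circRNAs with no filter, and p-values were two-sided, with Benjamini-Hochberg adjustment across every circRNA or host gene tested in a comparison. Circles between stages were called at an adjusted p under 0.05 and a log2 fold change of 1 or more in size, and slopes, tests over all stages and host genes at an adjusted p under 0.05 alone. Relations across libraries used 100000 permutations. Exons came from RefSeq, and figures from Python with matplotlib. The test was run on simulated data first. The members and the 7 gene lists were chosen with earlier results of these data known. The circRNAs of the 3 genes were all named, with the 3 circRNAs most like each, and for each list the 4 measured genes of lowest p in 180d vs 1d. Further genes of the Rac list (all 5 with a called slope, ELMO1 and PAK2, and the 4 of lowest slope) were named after their values were seen. Intervals cover counting error only.

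Alternatives for the depth were size factors of DESeq2, the clean reads (from the sequencing summary of the study) and table totals. Others were the test of DESeq2 1.42.0, a filterByExpr filter, a block for the replicate number, the GC content of a library's reads as a covariate, libraries with a valid-base share of 0.96 or more, thinning, each library left out in turn, and only the 2 stages compared. Shares within a library, the trend without 1d and the lists under other depths were added after seeing the data.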

Additional observations from a re-analysis of the deposited data

How the results depend on the processing

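The counts of the 3 circRNAs called were 0, 0, 1, 1, 1, 2 and 2 in the 7 comparisons with 1d by age, 1 over all stages and 2 in the age trend. They stayed within 1.5 times these values in 66 of 88 results under the alternatives other than leaving out 1 library. With clean reads as the depth, 1, 2, 2 and 3 passed on days 14, 21, 28 and 35 and 3 over all stages, a scale on which the median of all circRNAs moves up. With table totals 0 passed on day 21 and 1 on day 120, with filterByExpr, which left out DOCK2, 1 on day 120, and with DESeq2 2 over all stages. With a covariate for the GC content of the reads 0 passed on day 21, 0 on day 35, 1 on day 120 and 1 on day 180. In libraries with a valid-base share of 0.96 or more 0 passed on day 21 and 1 in the trend. Only replicate 1 was left there on each of days 35, 120 and 180. Thinned to the lowest total, 0 passed on day 21, 1 on day 120, 1 on day 180 and 1 in the trend. Why the counts fell was not tested, beyond the fewer libraries or reads that these settings hold. Without 1 library the counts ran from 0 to 1 on days 21 and 28, 1 to 2 on days 35, 120 and 180 and over all stages, and stayed at 2 in the trend.

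Of 525 results for single circRNAs, 473 kept direction and call, 30 lost it, 19 gained it and 3 changed sign. Without 1 library the ARHGAP15 change ran from -0.082 (without 7d replicate 3) to 5.26 in 7d vs 1d and from -0.011 (without 14d replicate 1) to 5.12 in 14d vs 1d, the high ends being fits without 1d replicate 2, which left no reads of it at 1d and give no bound, and the DOCK2 slope was -0.00064 without the libraries of 1d. CD96 kept its call over all stages and in the trend in every alternative run. On days 120 and 180 it kept its call in every alternative that left more than 1 library of the stage. The replicate number of the labels as a block moved no count (2 called on day 180, 2 on day 120). Pigs with the same number did not deviate together (mean r 0.00624), and 9 of 24 correlated best with their own number. The test of isoforms within a gene could not be run with 1 circRNA per gene. Depth limits the values of ARHGAP15 and DOCK2, which rest on 252 and 82 reads over 24 libraries.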
